A study of Mus musculus with 4 samples.

Results

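Acinar cells are the exocrine secretory cells of the pancreas. In these data they were taken as the cell barcodes that carried pancreatic digestive enzyme RNA in bulk and no UMI of a general leukocyte gene. A barcode with 500 or more detected genes and at most 10% mitochondrial UMIs was kept. It was counted as acinar when the UMIs (unique molecular identifiers, each standing for 1 captured RNA molecule) of Cpa1, Cpb1, Cela2a, Cela3b and Ctrb1 together made up at least 200 of every 10,000 of its UMIs and when it held 0 UMIs of Ptprc, the gene for the leukocyte surface protein CD45. This rule found 101 acinar cells among 7984 kept barcodes, which is 1.265%. All 101 came from 1 of the 2 tumors studied. The summed share of the 5 enzymes is called the enzyme load of a barcode here. The members were thus chosen by the measured levels of these 5 genes and of Ptprc, which are given as a description only.

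The tumors came from KPC mice, whose alleles include Trp53LSL-R172H/+ and Pdx1-Cre, on a C57BL/6J background. Pdx1-Cre acts in the pancreatic epithelium, where it switches on mutant Trp53, and no pancreas without these alleles was analysed here. Each of 2 pancreatic tumors was dissociated with enzymes at 37 C for 45 min, and 2 fractions were loaded on a droplet 3′ RNA assay: viable, DAPI-negative cells ("all live"), and a sorted fraction gated as DAPI-CD45-CD31-EpCAM-PDPN+ ("sorted CAF", for cancer-associated fibroblasts). The protocol describes no label that selects acinar cells, and its list of stains names no EpCAM antibody. The groups compared are therefore the acinar cells of the all live and of the sorted CAF library of tumor 2, and in each library a reference class of Epcam-rich epithelial barcodes. The reference held at least 20 UMIs of Krt8 plus Krt18 and at least 3 of Epcam per 10,000, with an enzyme load below 200.

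Acinar cells make and store digestive zymogens in granules and release them into the duct when cholecystokinin or acetylcholine raises their calcium. Their enzyme genes are driven by the PTF1 complex, in which the basic helix-loop-helix factor PTF1A pairs with RBPJ or its acinar form RBPJL, together with factors such as NR5A2 and BHLHA15 (MIST1). In injury and in early tumor formation, acinar cells can lose this program and take on duct-like features, a process called acinar-to-ductal metaplasia, and they raise secreted proteins of the REG (regenerating islet-derived) family.

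The PTF1 complex binds a bipartite site whose letters can be looked for in the promoters of acinar genes, and 4 promoters are shown first. Ctrb1 and Prss2 held 12.45% and 6.605% of the acinar UMIs in the all live library, Cpa1 and Reg3a 0.4997% and 0.4937%. All 4 promoters hold both sets of letters, as 18 of the 43 windows counted below do, so they are examples and not typical of the list. Each promoter shown is the 250 bases upstream of the RefSeq gene start (mm10/GRCm38.p6), 5′ to 3′ in the direction of the gene. They lie at chr6:30638968-30639217 (+) for Cpa1, chr8:111691011-111691260 (-) for Ctrb1, chr6:41521526-41521775 (+) for Prss2 and chr6:78380459-78380708 (+) for Reg3a. Capitals mark CANNTG, the E-box letters that basic helix-loop-helix factors bind, and TGGGAA, the core letters of an RBPJ site, on either strand (TTCCCA is TGGGAA on the other strand).
Cpa1: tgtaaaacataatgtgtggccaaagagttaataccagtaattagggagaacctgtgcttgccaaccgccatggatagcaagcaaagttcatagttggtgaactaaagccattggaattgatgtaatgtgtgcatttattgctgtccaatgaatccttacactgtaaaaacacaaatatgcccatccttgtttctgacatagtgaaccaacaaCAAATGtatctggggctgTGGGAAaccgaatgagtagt
Ctrb1: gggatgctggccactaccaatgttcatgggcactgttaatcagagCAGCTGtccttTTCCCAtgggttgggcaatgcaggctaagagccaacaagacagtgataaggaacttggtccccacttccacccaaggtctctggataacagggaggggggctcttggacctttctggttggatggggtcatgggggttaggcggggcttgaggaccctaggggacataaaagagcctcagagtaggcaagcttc
Prss2: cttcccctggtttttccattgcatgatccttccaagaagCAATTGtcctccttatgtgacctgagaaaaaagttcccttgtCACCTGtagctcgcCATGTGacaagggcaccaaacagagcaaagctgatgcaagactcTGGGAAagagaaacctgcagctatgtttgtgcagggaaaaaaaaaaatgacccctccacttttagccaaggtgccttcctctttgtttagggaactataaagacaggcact
Reg3a: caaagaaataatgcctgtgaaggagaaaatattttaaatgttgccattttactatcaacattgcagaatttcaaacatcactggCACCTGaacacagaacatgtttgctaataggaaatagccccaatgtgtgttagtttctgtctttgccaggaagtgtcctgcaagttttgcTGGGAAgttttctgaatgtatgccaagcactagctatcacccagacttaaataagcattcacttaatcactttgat

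In the Cpa1 promoter CANNTG began 38 bases and TGGGAA 20 bases upstream of the gene start. In the Ctrb1 promoter CANNTG began 205 bases upstream and TGGGAA 194, on the reverse strand. Prss2 had CANNTG at 211, 169 and 155 bases and TGGGAA at 111 bases upstream, and Reg3a had CANNTG at 166 and TGGGAA at 76. Of the 52 genes on the enzyme, granule and REG lists, 41 had a RefSeq promoter, with 43 windows in all. CANNTG was found in 37 of the 43 windows, TGGGAA in 22 and both in 18. Among 32851 promoters of the same length, 66.22% held CANNTG, 21.59% held TGGGAA and 14.81% held both. All 5 genes of the rule had CANNTG and 3 of 5 had TGGGAA. A match describes letters in the window and not a bound site.

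The 4 libraries held 8282 barcodes with 85230726 UMIs, from 14972652 to 30950993 UMIs per library. The median barcode had 3287 UMIs in the all live library of tumor 2, the shallowest of the 4, against 10083.5 in its sorted CAF library and 10744.5 and 13764 in the libraries of tumor 1. After the filter 3335 barcodes of tumor 1 and 4649 of tumor 2 remained. Between 4 and 6 barcode sequences were shared by each pair of libraries, and none of these was an acinar cell.

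Acinar cells were found in tumor 2 in both fractions and in tumor 1 in neither. The all live library of tumor 2 held 75 acinar cells, 2.189% of its 3427 kept barcodes (95% Clopper-Pearson interval 1.725 to 2.736%). The sorted CAF library held 26, 2.128% of 1222 (1.394 to 3.102%). All such intervals, and those of levels and ratios below, cover counting error only. The 2 shares lie within each other's interval, although the sort was designed to take fibroblasts. In tumor 1 there was no acinar cell among 3335 kept barcodes. The intervals reach up to 0.1907% in its all live and 0.2628% in its sorted CAF library. They hold only for the barcodes present, of which the shallowest had 4972 and 4040 UMIs, against 1620 and 3221 in tumor 2. The acinar cells of the all live library of tumor 2 had a median of 4742 UMIs. Barcodes of tumor 1 below its lowest depths could not be examined. The highest enzyme load of any kept barcode of tumor 1 was 7.282 per 10,000 in the all live and 4.661 in the sorted CAF library, against 2860.2 and 2900.2 in tumor 2. The whole all live library of tumor 1 held 19 UMIs of the 5 enzymes and its sorted CAF library 14, whereas those of tumor 2 held 97984 and 40214.

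**Figure D1:**
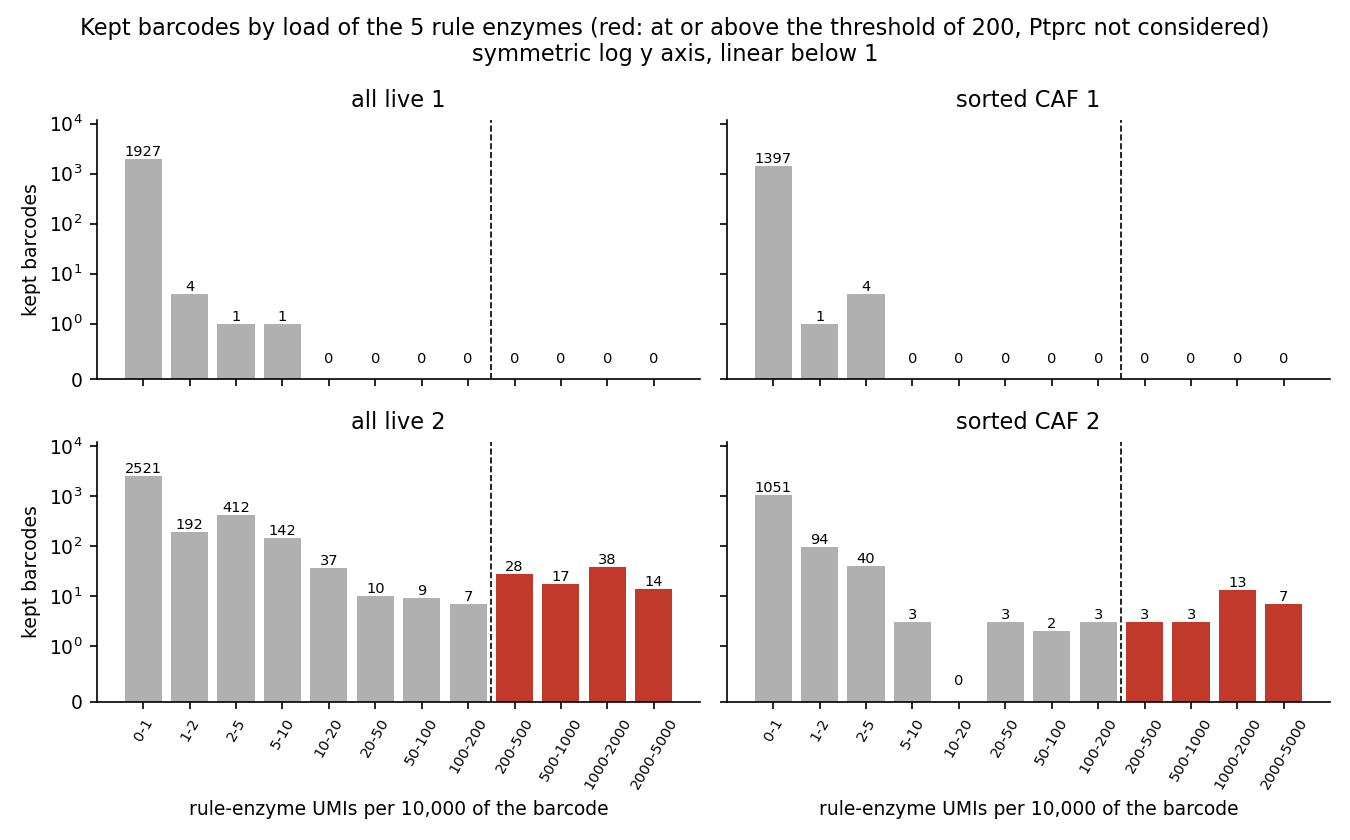
Number of kept barcodes (symmetric log y axis, linear below 1) in each range of enzyme load (x axis, UMIs of the 5 rule enzymes per 10,000 UMIs of the barcode), 1 panel per library. The dashed line is the threshold of 200, and the red bars to its right, which include the 22 barcodes with Ptprc UMIs of the all live library of tumor 2, are filled in tumor 2 and empty in tumor 1.

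With acinar cells in 1 animal, each fraction has 1 library, and no test across samples could be run. The comparisons below are differences between classes of 1 library, shown for both libraries of tumor 2 and called where they pass 4-fold, and they carry no p-value. The absence from tumor 1 likewise rests on 1 tumor, so the animal, the tumor, its handling and the lowest depth of its barcodes cannot be told apart.

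In the levels that follow, the UMIs of a gene were summed over the cells of a class in a library and divided by all UMIs of that sum, and are given as CPM (UMIs per 1,000,000 UMIs of the sum). The acinar sums held 507146 UMIs in the all live and 188808 in the sorted CAF library, and the reference sums 1292973 (155 barcodes) and 274705 (19 barcodes). Each captured 3′ end counts once, so a level is a share of RNA molecules and needs no division by gene length, but capture can differ between genes and levels of different genes are not ranked as expression.

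Most members lay far above the threshold. Of the 101 cells, 68 had a load of 1000 or more per 10,000, 48 in the all live and 20 in the sorted CAF library. Just inside the threshold, at 200 to 300, were 5 and 2 cells with median loads of 235.6 and 280.6. Just outside, at 100 to 200, were 7 barcodes in the all live library, 6 of them with Ptprc UMIs, and 3 in the sorted CAF library, none with Ptprc. The label was checked against Pnlip, the pancreatic lipase gene and the 1 marker of the label that the rule did not use. Pnlip stood at 189.3 CPM in the acinar cells of the all live library and at 0.7734 in the reference, a log2 ratio of 7.94 (5.42 to 13.25). In the sorted CAF library it stood at 185.4 against 0 UMIs in the reference, at least 16.97-fold higher. Pnlip was at 0 in 42 of 75 and 12 of 26 acinar cells, so it marks the class and not each cell.

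Digestive enzyme, granule and REG transcripts made up about as much of the acinar RNA as all other genes together. These 49 genes held 48.41% of the UMIs of the acinar cells in the all live and 51.02% in the sorted CAF library. In the reference they held 0.2228% and 0.05206%, in leukocyte barcodes 0.06182% and 0.04549%, and in fibroblast barcodes 0.08602% and 0.0319%. The single cells ranged widely around these sums, from 10.27% over a median of 46.98% to 74.27% in the all live library and from 9.313% over 60.92% to 78.75% in the sorted CAF library. A few genes carried most of it: the 6 genes with the most UMIs held 39.76% of the acinar UMIs in the all live and 42.05% in the sorted CAF library. Those were Ctrb1, Try5, Prss2, Reg3b, Reg1 and Reg2.

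Since these genes fill so much of the total, every other gene takes a smaller share of it. Over the 2123 genes with at least 20 UMIs in the acinar or the reference sum of both libraries, the median log2 ratio of acinar over reference was -1.51 in the all live and -1.53 in the sorted CAF library. With the enzyme, granule and REG genes taken out of both totals it was -0.56 and -0.50. Of the 2123 genes, 43 (2.03%) were 4-fold or more higher in acinar cells in the all live library and 806 (38.0%) 4-fold or more lower. In the sorted CAF library the counts were 51 (2.40%) and 814 (38.3%). Past 4-fold in both libraries were 43 (2.03%) and 621 (29.3%), and with the secretory genes out of the totals 60 (2.83%) and 70 (3.30%) were higher and 454 (21.4%) and 338 (15.9%) lower. A fold below is over all UMIs unless it is said to leave those genes out.

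Among the genes of the rule, Ctrb1, which encodes chymotrypsinogen B, held 12.45% of all acinar UMIs in the all live and 13.45% in the sorted CAF library. Single cells held 151.8 to 2497.8 Ctrb1 UMIs per 10,000 with a median of 1045.9 in the all live library. Those of the sorted CAF library held 239.7 to 2685.6 with a median of 1429. Every member was high, since the rule asked for it, and both libraries covered the same range. The elastase Cela3b stood at 10393.5 and 7796.3 CPM, the procarboxypeptidases Cpa1 at 4996.6 and 4337.7 and Cpb1 at 2190.7 and 3485.0, and the elastase Cela2a at 3050.4 and 2807.1. By the mouse mm10 annotation these protein-coding genes span chr8:111686519-111691010 (Ctrb1), chr4:137420999-137430540 (Cela3b), chr4:141814962-141826160 (Cela2a), chr6:30639218-30645363 (Cpa1) and chr3:20248264-20275733 (Cpb1).

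The proteases that the rule did not use held 17.2% and 15% of acinar UMIs, about as much as the 5 rule enzymes at 14.51% and 15.29%. Of 15 listed, 11 passed the filter on low counts in both libraries and all 11 were 4-fold or more higher, with median log2 ratios of 8.19 and 7.32. They passed the filter only through the acinar cells, where they are high, so this count describes them and tests nothing. Try5, a trypsinogen, held 139 to 1517.1 UMIs per 10,000 in single acinar cells of the all live library, with a median of 803.4. It held 157.3 to 1232.6 in the sorted CAF library, with a median of 749.9. Prss2, the other main trypsinogen, had medians of 673.3 and 771.2. No acinar cell lacked either one. The trypsinogen-like gene 2210010C04Rik had log2 ratios of 9.12 and 11.76 (9.28 to 17.06, on 1 UMI in the reference). Try4 stood at 4884.2 and 3315.5 CPM, and Klk1, tissue kallikrein, at 2354.4 and 2526.4 against 1.547 and 3.64 in the reference. Cela1, an elastase, stood at 1009.6 and 1159.9. Prss1, Ctrc and Gm5771 had at most 5 acinar UMIs each in either library, and Cela3a had 0 and 2. The trypsinogen genes lie within chr6:40995830-41525079, which ends with Prss2, and are similar in sequence, so reads that fit several copies may have been left out or assigned among them.

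Try5 and Prss2 in the reference were mostly the RNA of 2 barcodes. In the all live library these held 332 of the 380 Try5 UMIs and 276 of the 340 Prss2 UMIs of 155 reference barcodes. Both resembled acinar cells in some measures, with secretory genes at 14.17% and 15.52% of their UMIs, mitochondrial UMIs at 0.06334% and 0.07376%, and no Malat1 UMI. Their enzyme loads were 76.01 and 81.14 per 10,000, and their enzyme mix differed. They held 27 and 21 Ctrb1 UMIs against 169 and 163 Try5 UMIs, whereas the acinar sum held 0.6574 Try5 UMIs per Ctrb1 UMI. With these 2 barcodes, the log2 ratio of Try5 was 8.12, that of Prss2 7.97 and that of the trypsin inhibitor gene Spink1 8.01. Without them the ratios were 11.1, 10.37 and 10.36.

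Enzymes for fat, starch and nucleic acids were present at lower shares. The 6 genes for lipid digestion made up 0.923% and 1.05% of acinar UMIs, led by the lipase-related Pnliprp1 (3961.4 and 6212.7 CPM) and colipase, Clps (3764.2 and 2415.2). Pnliprp2 stood at 702 and 715, the carboxyl ester lipase Cel at 502.8 and 905.7, and the phospholipase Pla2g1b at 110.4 and 63.56. Rnase1, the pancreatic ribonuclease, stood at 2788.2 and 3013.6 against 8.508 and 10.92 in the reference. The amylases, by contrast, were almost missing. Amy2a5 stood at 17.75 and 79.45 CPM and Amy1 at 29.58 and 52.96, at most 15 UMIs per gene and library. Amylase genes have near-identical copies, among which uniquely mapped reads may be lost, so these levels are uncertain.

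The protective and granule proteins followed the enzymes. Spink1, the trypsin inhibitor that guards the cell against early activation, held 16.67 to 229.3 UMIs per 10,000 in single cells of the all live library (median 66.69) and 32.46 to 187.3 in the sorted CAF library (median 99.65). The zymogen granule proteins Zg16 (4132.9 and 3193.7 CPM) and Sycn, syncollin (2608.7 and 2229.8), came next. Gp2, the main glycoprotein of the granule membrane, stood at 366.8 and 513.7 and Cuzd1 at 268.2 and 349.6, while Serpini2 reached 31.55 and 105.9. Of 8 genes of this list in the table, 5 passed the filter and all 5 were 4-fold or more higher in both libraries, with medians of 8.44 and 9.26, again through the acinar cells alone.

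**Figure D2:**
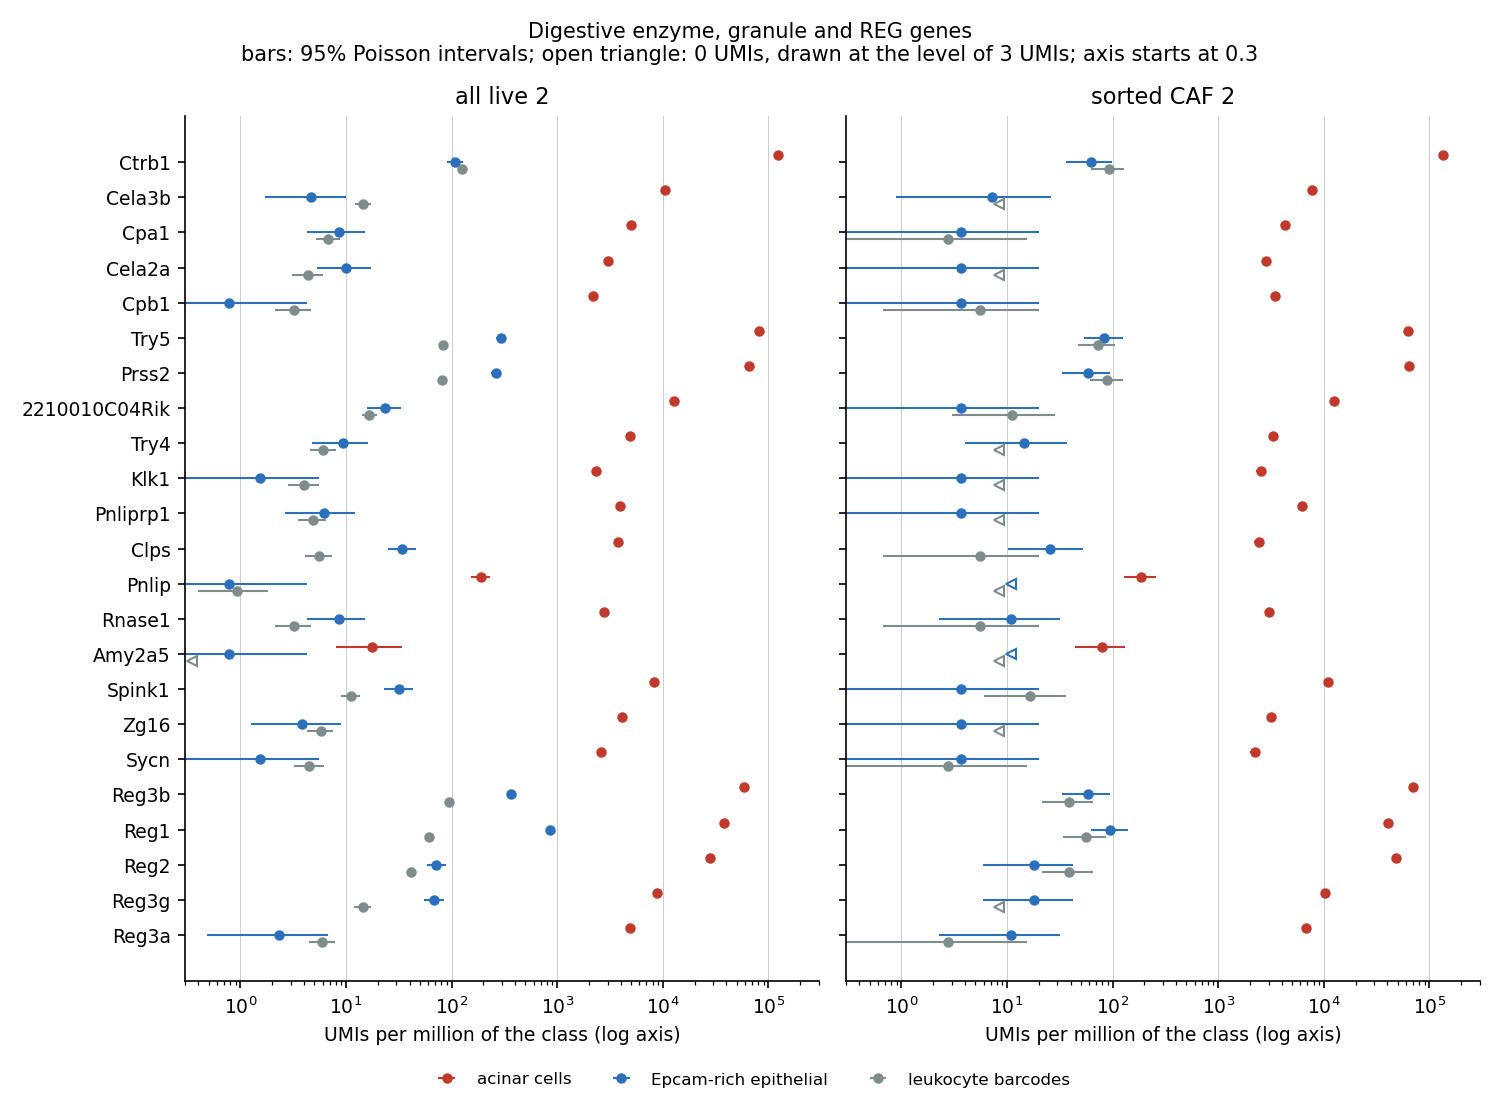
Level of enzyme, granule and REG genes (x axis, CPM of the class on a log scale) in acinar cells, Epcam-rich epithelial barcodes and leukocyte barcodes of both libraries of tumor 2, with 95% Poisson intervals. Open triangles mark genes with 0 UMIs, drawn at the level of 3 UMIs. The acinar points lie to the right of both other classes for every gene shown, and those of Amy2a5 and Pnlip lie furthest to the left among them.

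The REG family came close to the enzymes of the rule in its share of the RNA. REG proteins are small secreted lectin-like proteins that acinar cells release in pancreatitis; Reg3b and Reg3g also bind bacteria. The 7 listed genes held 13.93% and 17.62% of acinar UMIs, and 2.236 to 30.6% (median 12.9%) and 2.871 to 29.69% (median 19.53%) in single cells. Reg3b held a median of 542.5 UMIs per 10,000 in the all live library, from 76.47 to 1184.7. Its median in the sorted CAF library was 803.7, from 134.8 to 1087.3. Reg1 had medians of 351.4 and 396.1 and Reg2 of 254.6 and 563.9. Every acinar cell of both libraries therefore held Reg1, Reg2 and Reg3b UMIs, and the lowest cell held 12.08 Reg2 UMIs per 10,000. Reg3g (medians 72.66 and 113.1) and Reg3a (37.94 and 79.86) were lower. Reg3d reached 266.2 and 450.2 CPM with 0 UMIs in the reference, at least 114.7-fold and 41.22-fold higher, and Reg4, which is made by other gut epithelia, had 0 UMIs in both acinar sums. The 6 expressed genes lie within chr6:78370657-78468872.

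Against the reference the log2 ratio in the all live library was 7.35 for Reg3b, 5.47 for Reg1, 8.59 for Reg2 and 11.06 for Reg3a (9.51 to 13.33). The sorted CAF values were 10.23, 8.74, 11.38 and 9.29 (7.74 to 11.57), with 3 Reg3a UMIs in each reference sum. Without the 2 low-load barcodes just described, the all live values became 8.37 for Reg3b, 5.75 for Reg1 and 9.99 for Reg2. Of the 1115 Reg1 UMIs in the reference, 540 lay in 2 other barcodes, and 33 of 155 barcodes had any. In tumor 1, which had no acinar cell, the 42 reference barcodes of the all live library held no UMI of the 5 rule enzymes, yet the highest of them held 123.3 Reg1 and 75.33 Reg3b UMIs per 10,000, with 40 of the 42 at 0 for each gene.

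The transcription factors behind the acinar program were sparse in counts. Ptf1a had 25 UMIs in the acinar cells of the all live library (49.3 CPM) against 2 in the reference, a log2 ratio of 4.99 (2.99 to 8.12), and 4 against 0 UMIs in the sorted CAF library. Rbpjl had 12 and 8 acinar UMIs and none in the reference, at least 10.2-fold and 3.88-fold higher. Bhlha15 had 0 and 1 UMI, Nr5a2 4 and 3, Gata6 3 and 3, Foxa2 2 and 1, and Hnf4a 0 and 1, too few for a ratio to be read. Of the 15 factors listed, 2 passed the filter on counts, 1 of them (Xbp1) 4-fold or more higher in the sorted CAF library and 1 (Mecom) 4-fold or more lower in both. Xbp1, the factor that drives secretory capacity, stood at 406.2 and 466.1 CPM against 140 and 116.5 (log2 1.54 and 2.00, and 2.49 and 3.03 without the secretory genes). Mecom was lower, at 5.915 and 15.89 against 41.76 and 87.37 (log2 -2.82, -5.14 to -1.20, and -2.46, -4.83 to -0.74, on 3 acinar UMIs each).

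Genes of stimulus and release showed little RNA. Cckar, the cholecystokinin receptor gene, had 22 and 7 UMIs, 43.38 and 37.07 CPM, a log2 ratio of 4.81 (2.79 to 7.94) in the all live library and at least 3.395-fold in the sorted CAF library. The muscarinic receptor genes Chrm1 and Chrm3 had 0 UMIs. Of 21 listed genes 5 passed the filter: Vamp8, the granule SNARE gene (171.5 and 132.4 against 513.5 and 582.4; log2 -1.58 and -2.14), Gnas (log2 -0.48 and -0.69), Rab27b (-1.92, and -3.12 with an interval of -5.46 to -1.47), Stx3 (-1.26, and -3.98 with one of -9.35 to -1.36) and the calcium pump gene Atp2a2 (-3.81 and -1.90). None was 4-fold or more higher. Below the filter, the cargo receptor gene Tmed6 stood at 33.52 and 42.37 CPM against 6.961 and 3.64.

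Genes of protein folding in the endoplasmic reticulum took a smaller share of the RNA in acinar cells than in the reference over all UMIs, though not once the secretory genes were left out. Erp27, a disulfide isomerase family gene known from pancreas, was far higher, at 195.2 and 180.1 CPM against 0.7734 and 0 (log2 7.98, 5.47 to 13.30, and at least 16.49-fold). The 29 genes together held 0.3011% and 0.2744% of acinar UMIs against 0.5698% and 0.4882% in the reference. Hspa5, which encodes the chaperone BiP, stood at 171.5 and 222.4 against 512 and 487.8 (log2 -1.58 and -1.13, and lower also without the secretory genes at -0.63 and -0.10). Calr (log2 -2.69 and -2.88), Hsp90b1 (-2.47 and -1.99) and Canx (-1.79 and -2.21) were lower too. Ppib stood at 390.4 and 354.9 against 390.6 and 258.5. The median of the 19 genes past the filter was -0.88 and -0.87, and 0.07 and 0.16 with the secretory genes out of the totals, so the direction of the list as a whole depends on the total chosen. Past 4-fold were 1 higher and 3 lower of the 19 in the all live library and 1 higher and 2 lower in the sorted CAF library, against 38.0% and 38.3% of all genes lower. The medians of the list lay above those of all genes (-1.51 and -1.53, and -0.56 and -0.50 without the secretory genes) in both libraries under both totals.

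Nupr1, a small chromatin protein gene raised by cell stress and pancreatitis, made up 1.212% and 0.831% of acinar UMIs. Single cells of the all live library held 6.952 to 349.5 Nupr1 UMIs per 10,000 (median 92.43) against 0 to 39.34 in the reference (median 1.568). The sorted CAF cells held 28.02 to 200.3 (median 64.64) against 0 to 19.13 (median 2.774). Every acinar cell held Nupr1 UMIs, and in both libraries the acinar median lay above the highest reference barcode. The log2 ratios were 5.03 (4.90 to 5.17) and 3.90 (3.66 to 4.15). The other genes of the integrated stress response lay nearer to the reference or below it. Atf4 stood at 100.6 and 111.2 CPM against 171.7 and 265.7, Atf3 at 74.93 and 259.5 against 841.5 and 546, and Ddit3 (CHOP) at 19.72 and 10.59 against 26.3 and 87.37. Asns, asparagine synthetase, stood at 78.87 and 74.15 against 21.66 and 47.32. Of 6 genes past the filter, 1 was 4-fold or more higher in each library (Nupr1), and 2 and 3 were 4-fold or more lower, against 38.0% and 38.3% of all genes.

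Of 14 genes of amino acid and creatine metabolism, Eif4ebp1 alone passed the filter (216.9 and 174.8 CPM against 103.6 and 265.7). Gatm, the first enzyme of creatine synthesis, stood at 55.21 and 79.45 against 12.37 and 0, and Gamt, the next, at 51.27 and 63.56 against 6.961 and 14.56.

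**Figure D3:**
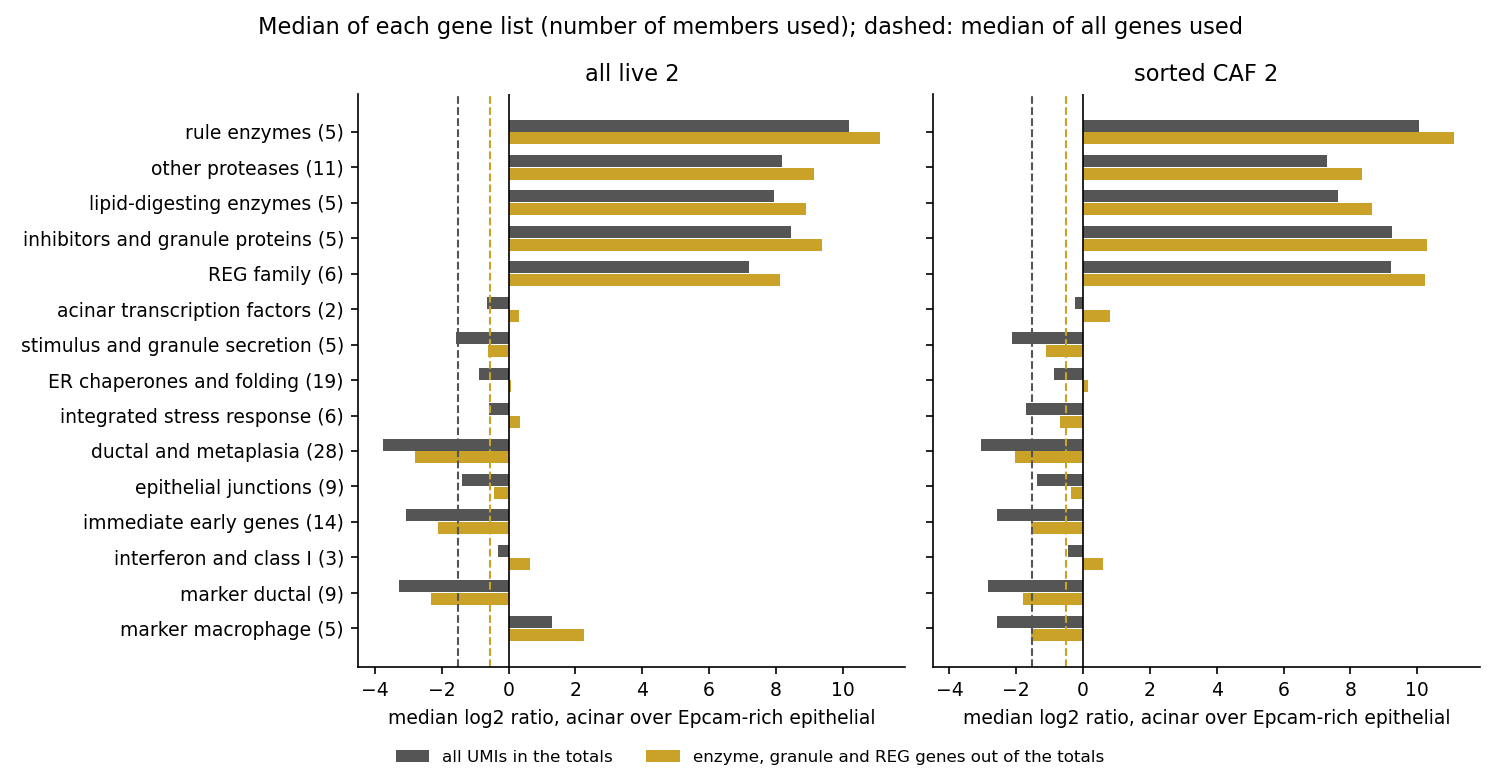
Median log2 ratio of acinar over Epcam-rich epithelial barcodes for each gene list (number of members past the count filter in brackets), with all UMIs in the totals and with enzyme, granule and REG genes taken out; dashed lines give the median of all genes under the same total. The enzyme, granule and REG lists stand between 7 and 12, which follows from the filter. The transcription factor, folding, interferon and, in the all live library, stress lists change sign with the total. The ductal and immediate early lists lie below the dashed line of their own total in both libraries. Part of the members of these last lists passed the filter only through the reference.

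The acinar cells held RNA of some epithelial and ductal genes and little or none of others. Clu, clusterin, a secreted chaperone known to appear in injured and metaplastic acinar cells, made up 1.961% and 2.604% of their UMIs. Single cells held 24.56 to 504.6 Clu UMIs per 10,000 (median 189.4) in the all live and 42.48 to 584.3 (median 272.8) in the sorted CAF library. The reference held 3.596 to 447 (median 104.6) and 8.139 to 246.2 (median 81.33), so the ranges overlapped. The log2 ratios were 0.68 and 1.43, and 1.63 and 2.46 without the secretory genes. In the all live library of tumor 1 the 42 reference barcodes had a Clu median of 226.7 (7.459 to 397.9). This lies above the acinar median of the all live library of tumor 2, so the contrast holds for the reference of tumor 2 only.

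Krt19, a keratin of duct cells and a usual marker of metaplasia, held a median of 3.454 UMIs per 10,000 in the all live library (0 to 17.94, 21 of 75 cells at 0) and 1.366 in the sorted CAF library (0 to 16.65, 9 of 26 at 0). The reference medians were 12.29 and 12.09. The log2 ratios were -2.08 and -1.76, and -1.13 and -0.74 without the secretory genes, lower under either total. Of the 86 acinar Krt19 UMIs of the sorted CAF library, 47 came from 2 cells. A Krt19 UMI was found in 72.0% of acinar cells of the all live library, against 1.201% of leukocyte barcodes, and in 41.33% against 0.6005% after each barcode was thinned to 1500 UMIs (median depths 4742 and 3369 before thinning). The shares in the sorted CAF library were 65.38% of acinar cells and 11.63% of leukocyte barcodes.

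Tff2, a trefoil peptide gene of the stomach lining and of metaplasia, was spread over most acinar cells at full depth but concentrated in few reference barcodes. It held 0 to 87.96 UMIs per 10,000 in the all live library (median 8.41, 10 of 75 at 0) and 0 to 22.85 (median 5.099, 1 of 26 at 0) in the sorted CAF library. The reference median was 0 in both, with 96 of 155 and 14 of 19 barcodes at 0 and a highest value of 474.4. As a sum Tff2 was lower in the all live library (log2 -0.79, but 0.16 without the secretory genes) and higher in the sorted CAF library (0.27 and 1.30), so its direction depends on the library and the total. A Tff2 UMI was found in 86.67% of acinar cells and 38.06% of reference barcodes of the all live library (70.67% and 29.03% thinned). The sorted CAF shares were 96.15% and 26.32%, but 46.15% and 15.79% once thinned, on 26 and 19 barcodes. Lcn2, lipocalin 2, followed the same course, with log2 ratios of -0.34 and 0.90 (0.61 and 1.92 without the secretory genes). It was at 0 in 13 of 75 and 4 of 26 acinar cells against 101 of 155 and 12 of 19 reference barcodes, and 207 of the 340 Lcn2 UMIs of the sorted CAF acinar cells lay in 2 cells. Cldn4, a tight junction gene, stood at 175.5 and 391.9 CPM against 273 and 298.5, with log2 ratios of -0.64 and 0.39 that become 0.31 and 1.42 without the secretory genes.

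Other ductal genes were low or not found. Of the 28 ductal and metaplasia genes past the filter, 21 were 4-fold or more lower in the all live and 20 in the sorted CAF library (20 in both), against 38.0% and 38.3% of all genes, and none was 4-fold or more higher. Genes with fewer than 20 acinar UMIs passed the filter only through the reference, so this count describes them and tests nothing. The medians of the list were -3.75 and -3.05, and -2.80 and -2.03 without the secretory genes, against -1.51 and -1.53, and -0.56 and -0.50, over all genes. The calcium-binding S100a6 stood at 98.59 and 79.45 CPM against 10683.9 and 13388.9 (log2 -6.76 and -7.40). Krt7 stood at 39.44 and 52.96 against 1169.4 and 1492.5, Sox9, the factor of duct and progenitor cells, at 27.61 and 21.19 against 266.1 and 174.7, and Spp1, osteopontin, at 437.7 and 556.1 against 8348.2 and 3986.1. Onecut2, the gastric Gkn1, Cldn18 and the chloride channel gene Cftr had 0 UMIs in the acinar cells of both libraries, at least 84.07-fold, 122.6-fold, 22.88-fold and 12.42-fold lower than in the all live reference. The gastric trefoil gene Tff1 had 7 UMIs in the sorted CAF acinar cells, all in 1 cell.

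The genes that chose the reference were also present in acinar cells. Krt18 stood at 1528.2 and 1578.3 CPM and Krt8 at 1035.2 and 1562.4, and Epcam stood at 445.6 and 354.9 against 2219.7 and 1383.3, values the reference rule fixes in part. Of 9 junction genes past the filter, 3 were 4-fold or more lower in each library and none higher, a share no larger than the 38.0% and 38.3% of all genes. Cdh1, E-cadherin, stood at 92.68 and 185.4 against 345.7 and 455.0, and Cldn3 at 315.5 and 391.9 against 496.5 and 313.1, lower in the all live and higher in the sorted CAF library.

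**Figure D4:**
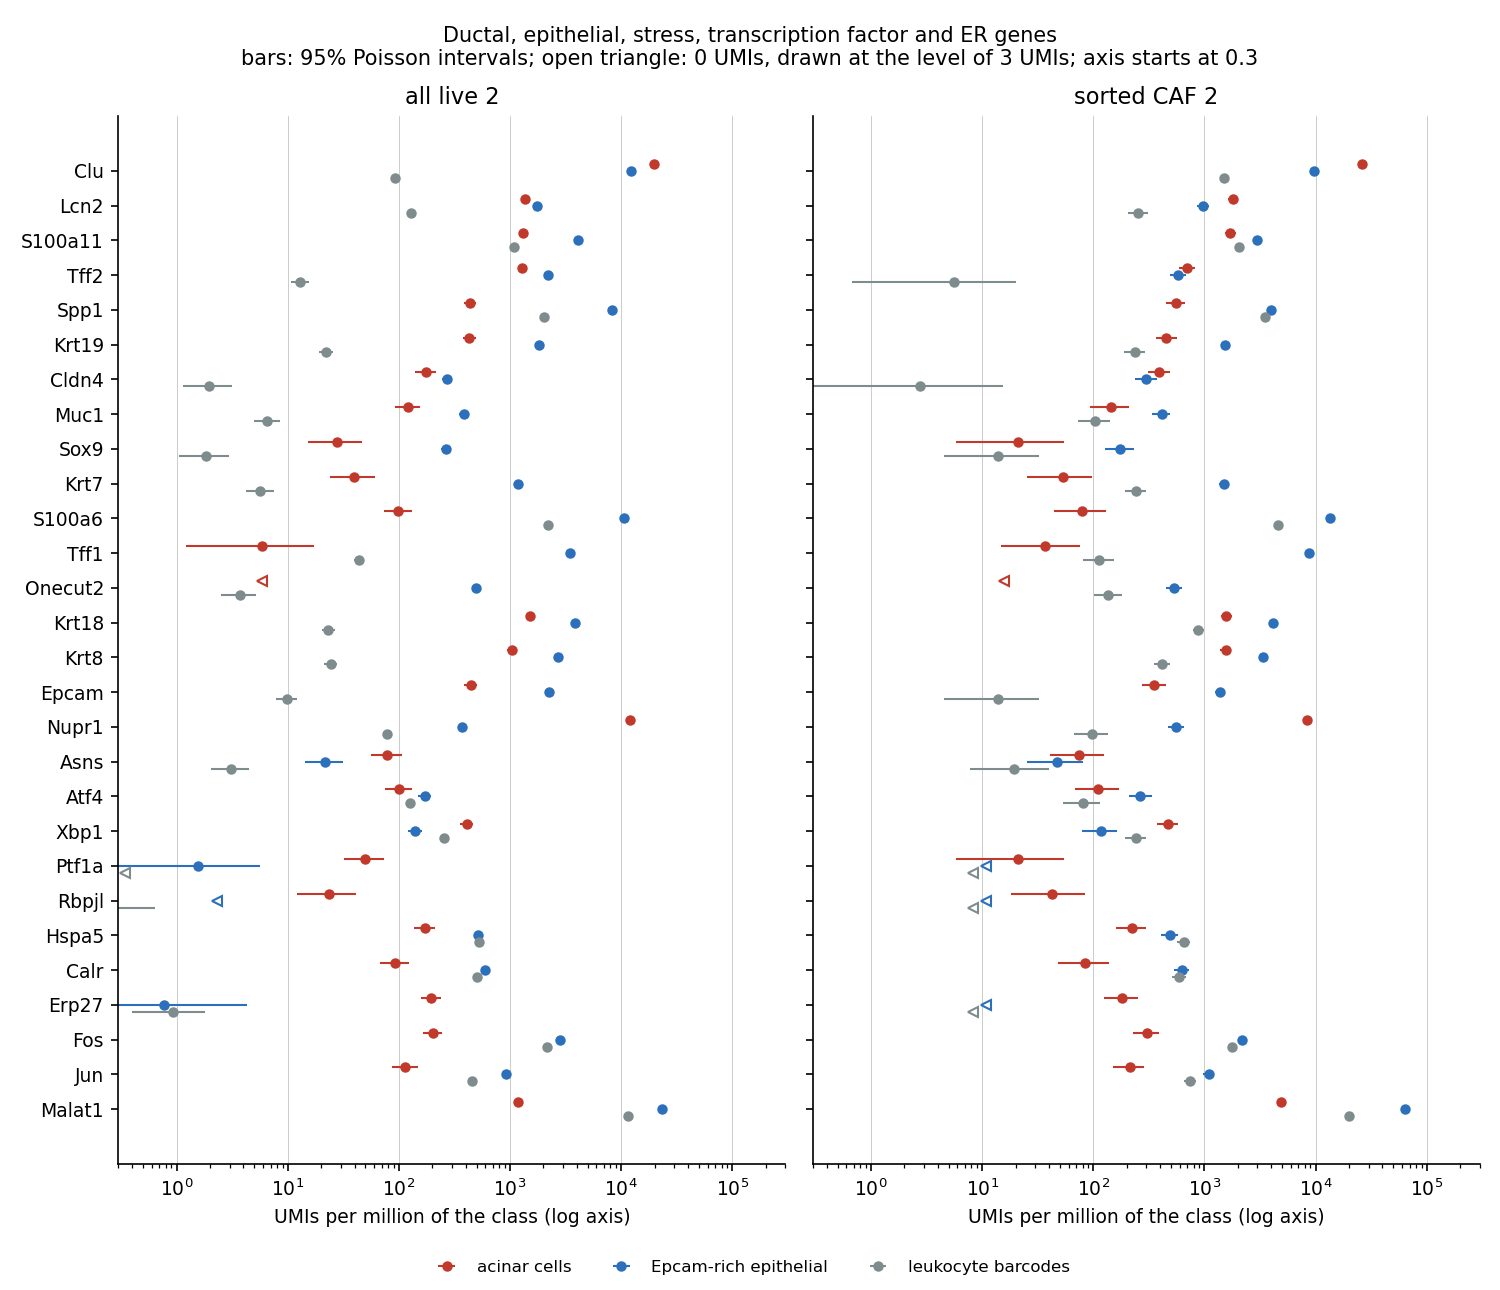
Level of ductal, epithelial, stress, transcription factor and folding genes (x axis, CPM of the class on a log scale) in acinar cells, Epcam-rich epithelial barcodes and leukocyte barcodes, with 95% Poisson intervals; open triangles mark 0 UMIs, drawn at the level of 3 UMIs. Nupr1 and Erp27 stand far to the right of the reference, Clu lies to the right of it by less, Lcn2, Tff2 and Cldn4 lie close to it with directions that depend on the library and the total, and S100a6, Tff1 and Onecut2 lie far to the left of it.

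Immediate early genes, which dissociation and growth factors both raise, were lower in acinar cells. Of 14 past the filter, 10 and 9 were 4-fold or more lower, against 38.0% and 38.3% of all genes, and 8 in both libraries, against 29.3%. The list had medians of -3.06 and -2.59 against -1.51 and -1.53 over all genes. Fos stood at 203.1 and 301.9 CPM against 2819.1 and 2198.7 (log2 -3.80 and -2.87) and Jun at 114.4 and 211.9 against 916.5 and 1095.7. Mki67, a marker of dividing cells, had 0 acinar UMIs in both libraries. This allows a share of up to 4.8% of 75 cells and 13.23% of 26. A Mki67 UMI was found in 13.55% and 10.53% of reference barcodes, and in 2.581% and 0% once thinned. After thinning, the intervals of acinar cells and reference overlapped. Of 16 proliferation genes, 8 and 13 had no acinar UMI. The acinar sums differ in depth (507146 and 188808 UMIs). The share of all genes at 0 was not counted, so these counts test nothing. Of 3 interferon and class I genes past the filter none passed 4-fold. B2m stood at 465.3 and 328.4 against 581.6 and 447.8, log2 -0.32 and -0.45 over all UMIs and 0.63 and 0.58 without the secretory genes.

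Outside the lists, the gene with the largest ratio was Gm2663, at 7851.8 and 4486 CPM against 5.414 and 7.281 (log2 10.50, and 9.27 with an interval of 7.41 to 12.32). It lies at chr6:40995830-40999479, at the other end of the stretch that holds the trypsinogen genes. Hsd17b13, a lipid droplet enzyme gene, stood at 240.6 and 291.3 against 0.7734 and 0 (log2 8.28, 5.78 to 13.60, and at least 26.67-fold), and Cabp2, a calcium-binding protein gene, at 142 and 111.2 (log2 5.52, and at least 10.18-fold). Tmem97 (log2 3.74 and 4.07), Procr, the protein C receptor gene (3.67 and 3.48), and the protease inhibitor Serpinb1a (2.24 and 2.28) were next. Ctsl, the lysosomal protease cathepsin L that can degrade trypsinogen, stood at 2169 and 2690.6 against 464 and 564.2 (2.23 and 2.25). Metallothionein Mt1 stood at 4844.8 and 4798.5 against 1157 and 629.8 (2.07 and 2.93). Dmbt1, a mucosal defence protein gene, and Tspan1 had log2 ratios of 1.99 and 1.17, and of 1.97 and 2.00. At the other end, Wfdc2 had 1 acinar UMI in each library against 1635 and 935.5 CPM in the reference (log2 -9.70, -15.00 to -7.22, and -7.47, -12.77 to -4.97). Lgals4, Wfdc18, Ecm1, Pglyrp1, Areg, Sptbn1, Emp1 and Tm4sf1 were also among the 10 lowest.

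The acinar barcodes differed from the others in makeup as well. They held a median of 4742 UMIs and 924 genes in the all live and 5742.5 UMIs and 906 genes in the sorted CAF library, against 6912 and 2386, and 13710 and 3053, in the reference. Thinned to 1500 UMIs each, they still held 444 and 338.5 genes against 837 and 791 in the reference, 772 and 788 in leukocyte and 830 and 835 in fibroblast barcodes. At equal depth the acinar cells thus held the fewest genes of the 4 classes in both libraries. Mitochondrial UMIs made up a median of 0.08347% and 0.1349% (range 0 to 6.361% and 0 to 6.966%) against 5.043% and 4.953% in the reference. Ribosomal protein genes, at 16.84% and 14.38% of the acinar sums, were nearer to the reference at 18.72% and 18.41% over all UMIs. The secretory genes held 48.41% and 51.02% of the acinar sums. With them out of the totals, the ribosomal share lies above that of the reference in both libraries.

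RNA kept in the nucleus was low in the same cells. Malat1 was at 0 UMIs in 48 of 75 and 18 of 26 acinar cells, against 5 of 155 and 1 of 19 reference barcodes. Its sums were 1183.1 and 4925.6 CPM against 23118.8 and 64352.7 (log2 -4.29 and -3.71). Of the 930 acinar Malat1 UMIs of the sorted CAF library, 895 lay in 2 cells. Neat1 was at 0 in 67 of 75 and 22 of 26 acinar cells and stood at 61.13 and 127.1 CPM against 2935.1 and 2606.4. The part of the low mitochondrial and nuclear RNA in the other differences from the reference was not tested.

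Among the members, the enzyme load went with other genes. In the all live library, cells with a load of 200 to 500, 500 to 1000, 1000 to 1500 and above 1500 numbered 14, 13, 16 and 32. The median share of all secretory genes over these groups was 25.25, 38.27, 46.14 and 60.46%. This share contains the load, so its order across the groups is built in. Reg2, which is no part of the load, had medians of 119.8, 237.1, 244.4 and 335.2 per 10,000, and 71.64, 297.7, 556.2 and 672.1 in the sorted CAF library (3, 3, 5 and 15 cells). Krt8 plus Krt18 ran the other way, at 44.1, 27.01, 19.93 and 16.37 in the all live and 59.93, 34.19, 18.43 and 9.256 in the sorted CAF library. Epcam (12.21, 4.954, 1.91 and 2.445) and Krt19 (5.253, 6.545, 2.637 and 1.398) were lower in the high-load groups of the all live library. In the few sorted CAF cells the groups were not in this order, with Epcam at 3.77, 6.034, 2.347 and 2.035 and Krt19 at 2.497, 4.023, 5.867 and 1.018. Clu stood at 209.8, 209.9, 183.2 and 177.1 in the all live and at 293, 372.1, 249.9 and 230.6 in the sorted CAF library.

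Across single cells, Spearman's rho with the load was 0.52 and 0.70 for Reg2, 0.55 and 0.49 for Reg1, 0.33 and 0.23 for Reg3b, -0.48 and -0.65 for Krt18, -0.19 and -0.35 for Clu and -0.16 and -0.19 for Nupr1 (75 and 26 cells). These describe cells of 1 library each. They share the total of the cell, so a gene's share is smaller where another's is larger, and they have no p-value.

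**Figure D5:**
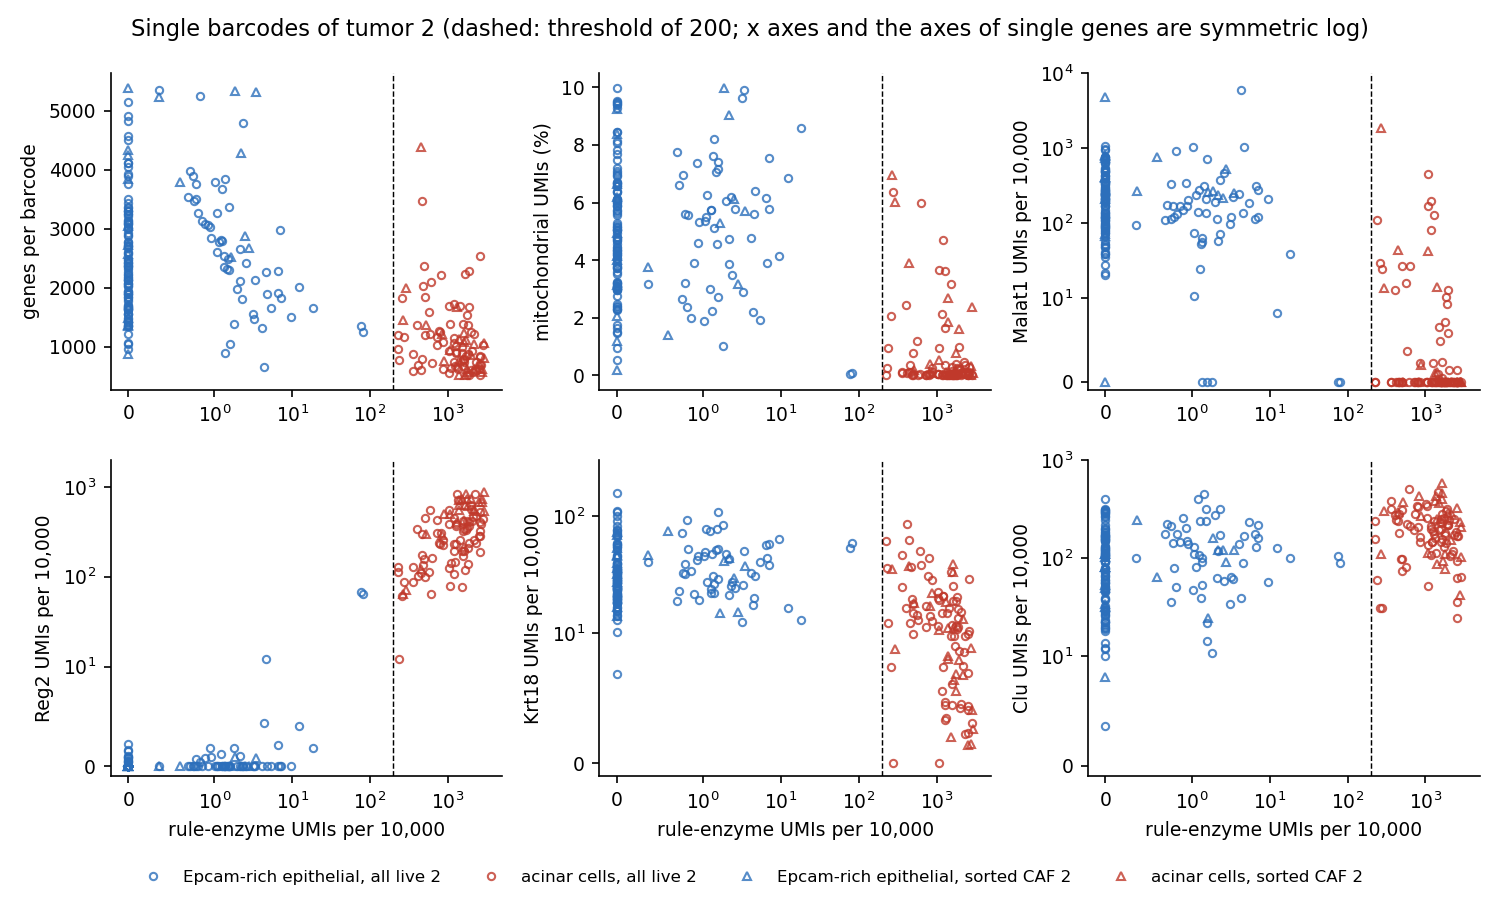
Genes per barcode, mitochondrial percentage, and Malat1, Reg2, Krt18 and Clu UMIs per 10,000 (y axes) against the enzyme load (x axis, UMIs per 10,000; symmetric log scales for the load and the single genes) for acinar and Epcam-rich epithelial barcodes of both libraries of tumor 2. Acinar cells right of the dashed threshold of 200 mostly lie near 0 for mitochondrial UMIs and Malat1, are higher in Reg2 and lower in Krt18 at high load, and overlap the reference in Clu; the 2 reference barcodes nearest the threshold have loads of 76.01 and 81.14.

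Marker UMIs of other cell types were found in many acinar cells, and which markers these were differed between the libraries. Macrophage and neutrophil markers were at 0 in 12 of 75 cells of the all live and 14 of 26 of the sorted CAF library. Fibroblast markers were at 0 in 65 of 75 and 5 of 26. High levels were rarer: in the all live library 7 of 75 cells held macrophage and neutrophil marker UMIs of 50 or more per 10,000 (68.15 to 700.9, median 278), with a median load of 629.7 and mitochondrial UMIs of 2.062%, against a load of 1288.5 and 0.07275% in the other 68. None of 26 reached that level in the sorted CAF library. The macrophage list summed to 0.129% and 0.01006% of acinar UMIs against 2.721% and 1.536% in leukocyte barcodes, the neutrophil list to 0.07986% and 0.0005296%, and the fibroblast list to 0.001972% and 0.04025% against 2.935% and 3.443% in fibroblast barcodes. The lymphocyte list summed to 0.00138% and 0.0005296%, the endothelial list to 0.002169% and 0.001589%, and the ductal marker list to 0.252% and 0.2357% against 1.8% and 1.733% in the reference. The endocrine list had 8 and 10 of 10 genes at 0, among them Ins1, Ins2, Gcg and Sst, and all 6 mesothelial and all 5 erythroid markers were at 0. The deepest sorted cell (32455 UMIs, load 446.5, 4385 genes) held 17.19% of its class's UMIs, and the deepest all live cell (36182 UMIs, load 2560.1) 7.134%.

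Between the fractions of tumor 2 few acinar genes differed by 4-fold. Of 1564 genes with at least 20 UMIs in either acinar sum, 10 (0.639%) were 4-fold or more higher in the sorted CAF library and 39 (2.49%) 4-fold or more lower, with a median log2 ratio of -0.25. The log2 ratios of the enzyme, granule and REG genes ran from -0.80 (Pla2g1b) to 1.75 (Serpini2), and none passed 4-fold. The most abundant lay near 0, with Ctrb1 at 0.11, Prss2 at -0.04, Reg1 at 0.08, Reg3b at 0.24 and Try5 at -0.37. Cel (0.85, 0.56 to 1.13), Reg2 (0.80, 0.76 to 0.84), Cpb1 (0.67) and Pnliprp1 (0.65) were higher in the sorted CAF library, and Clps (-0.64, -0.79 to -0.49) and Try4 (-0.56) were lower. Among other genes Nupr1 (-0.54) and Tff2 (-0.87) were lower. The 10 lowest ratios were those of genes known from macrophages, neutrophils and other leukocytes. Lyz2 had 186 acinar UMIs in the all live and 1 in the sorted CAF library, S100a8 126 and 0, Il1b 135 and 0, Cxcl2 125 and 0, and Srgn, Fcer1g, S100a9, Tyrobp, Apoe and H2-Ab1 followed. In the all live library 2 cells held 126 of the 186 Lyz2 UMIs and 93 of the 126 S100a8 UMIs. Others were spread more widely: 2 cells held 38 of 81 S100a9, 51 of 135 Il1b and 55 of 125 Cxcl2 UMIs, and 33 of 75 cells had a Cxcl2 UMI. The part of other cells' RNA in these ratios was not tested.

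The genes higher in the sorted CAF library were led by Col3a1, a fibroblast collagen (2 against 27 UMIs, log2 5.18, 3.19 to 8.30), with UMIs in 14 of 26 cells and 8 of the 27 in the highest 2. Timp3 (6 and 30 UMIs), Son (18 and 37), Malat1 (600 and 930), Ceacam1 (19 and 27) and Xist (46 and 65) were each mostly in 2 cells, which held 26 of 30, 29 of 37, 895 of 930, 25 of 27 and 64 of 65 of their sorted UMIs. AY036118 (77 and 255), Gm42418 (356 and 1019), Cyr61 (12 and 21) and Gm10263 (19 and 26) completed the 10 highest outside the lists. At a load of 500 or more Malat1 turned from 2.06 to -2.95, so its direction rests on the low-load cells. Without the deepest member of each library 67 genes were 4-fold or more lower, and without the 7 cells with leukocyte markers 17 were 4-fold or more higher. These differences are between 2 libraries and were not tested.

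Acinar RNA was also found in droplets of other cells. In the all live library of tumor 2 a Ctrb1 UMI was found in 22.86% of 2165 leukocyte barcodes (21.11 to 24.69%), 21.05% of 133 fibroblast barcodes and 32.26% of reference barcodes. Thinned to 1500 UMIs, the shares were 10.9, 8.271 and 9.032%. The thinned intervals of the 3 classes overlapped. The sorted CAF shares were 9.302, 22.07 and 36.84%, and 6.977, 2.798 and 10.53% thinned. In the sorted CAF library the reference had the highest share both before and after thinning, on 19 barcodes. In acinar cells the share was 100%. Per Ctrb1 UMI, leukocyte barcodes of the all live library held 0.6682 Try5 UMIs (0.6074 to 0.7348), close to 0.6574 in acinar cells (0.6493 to 0.6656). They held 0.4848 Reg1 UMIs (0.436 to 0.5385) against 0.3063, and 0.7512 Reg3b UMIs against 0.4763. Reference barcodes with a load below 50 held 9.989 Reg1 UMIs per Ctrb1 UMI (8.046 to 12.53), far from the acinar ratio, and 0.5275 Try5 UMIs (0.3638 to 0.7563), an interval that spans it. No profile of empty droplets was analysed here, and the source of enzyme UMIs in other classes was not tested. They were not read as expression by those classes.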

How the data were processed

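Pancreatic tumor cells of 2 mice were profiled by droplet single-cell RNA-seq in 4 libraries, an all live and a sorted CAF library per tumor. The values are raw UMI counts per gene and barcode as the authors deposited them, and the gene and barcode tables hold names only (other text, not measurements). Cell Ranger 2.0.0, CASAVA 1.4 and mm10 are named in the submitters' processing notes; the sources used here do not say how multi-mapping reads were treated. The labels speak of technical replicates, which the files do not separate, so each library counts as 1 sample.

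Barcodes were filtered and classed by the rule above with Python 3.11.15, numpy 2.4.6, scipy 1.17.1, pandas 2.3.3 and matplotlib 3.10.9. Leukocyte barcodes held Ptprc UMIs and were neither reference nor at the threshold; fibroblast barcodes held at least 20 UMIs of Col1a1, Col1a2 and Dcn per 10,000 and no Ptprc. Counts were summed per class and library. Levels have exact Poisson, shares Clopper-Pearson and ratios conditional exact 95% intervals. A fold against 0 UMIs is a lower bound against 3 counts per library sum. A gene entered a comparison with at least 20 UMIs in either class in both libraries, and 4-fold was the threshold. Doublets were kept; scrublet in scanpy 1.11.5 called 0.495% of the barcodes, so it has not worked, and as an alternative the barcodes with the highest scores were left out. The interval of the ratios was tested on simulated class sums, and the summing step was not tested. Gene positions are from GENCODE, promoters from RefSeq.

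Named are the rule enzymes, Pnlip, up to 5 genes of each list with the highest acinar level, lists' called genes where there are 5 or fewer, and the 10 highest and 10 lowest ratios outside the lists, apart from a few items not reported here. Genes beyond this (Clu's distribution by load, Malat1, Neat1, Mecom, Tmed6, Tff1 and those at 0 UMIs) were picked after their values were seen. Members and lists were chosen with earlier results of these data known.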

Additional observations from a re-analysis of the deposited data

Results flagged for a closer look

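In the all live library of tumor 2, 22 kept barcodes reached the enzyme threshold but held Ptprc UMIs and were left out by the rule. Their median load was 440.9 per 10,000, their mitochondrial share 2.87% and their macrophage and neutrophil markers 287.8 per 10,000. The sorted CAF library had 0 such barcodes.

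A further 24 barcodes of the all live library and 8 of the sorted CAF library reached the enzyme threshold outside the cell filter. In the all live library 22 of the 24 had fewer than 500 genes and 5 had more than 10% mitochondrial UMIs. In the sorted CAF library 4 failed on genes and 4 on mitochondrial UMIs. Tumor 1 had none of either kind.

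The log2 ratio of Lcn2, acinar over Epcam-rich epithelial, was -0.34 in the all live and 0.90 in the sorted CAF library. The directions differ between the fractions, and the difference was not tested. In the sorted CAF library 2 cells held 207 of the 340 acinar Lcn2 UMIs.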

How the results depend on the processing

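Taking enzyme, granule and REG genes out of the totals adds the same amount to every log2 ratio of the all live library (the median of all genes goes from -1.51 to -0.56). Genes just below 0 cross it by construction. Among the 58 named, with intervals over all UMIs that exclude 0, these were Tff2 (0.16), Lcn2 (0.61), Cldn4 (0.31) and B2m (0.63). Cldn4 held 89 acinar UMIs, too few to fix its direction under the smaller total. In place of 806 genes, 454 were 4-fold or more lower. With no count filter 216 were higher and 3266 lower than the reference, and 471 and 120 between the fractions. A threshold of 500 took 28 of the 58 genes outside the 95% interval of their ratio, the rule enzymes to 16.39% and 18.75% of UMIs and all secretory genes to 52.67% and 61.46%, and gave 4 genes higher and 74 lower between the fractions, with Malat1 at -2.95. Such a threshold passes members with keratins into the reference by construction. A threshold of 1000 left 48 cells in the all live library, and a minimum of 1000 genes left 36 and 12. Without the highest scrublet scores the shares of the all live library were 14.79% and 49.32%, and 16 genes were higher between the fractions. Chosen after seeing the data, leaving out the 7 cells with leukocyte markers gave 17 genes higher between the fractions, and leaving out the deepest member 67 lower. Thinning to 1500 UMIs took the share of barcodes with a Ctrb1 UMI to 10.9% (leukocyte), 8.271% (fibroblast) and 9.032% (reference) in the all live and to 2.798% (fibroblast) and 10.53% (reference) in the sorted CAF library. Where a value or the construction above does not show it, the cause was not tested. All 4 looser settings tried left tumor 1 with 0 acinar cells, among barcodes of at least 4972 (all live) and 4040 UMIs (sorted CAF).

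No paired analysis was possible because acinar cells were found in 1 tumor only. For the same reason the planned count models, their other normalizations, the fits without 1 library, the other minimum numbers of cells and the fit over all 4 libraries were not run. Depth limits the transcription factors: of 15, all but Ptf1a, Rbpjl and Xbp1 had fewer than 10 acinar UMIs per library.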
